A study of Mus musculus with 2 samples.

Results

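The mitophagy and autophagy receptors examined here were 7 genes of the 32285 in the deposited matrices, chosen by symbol: Bnip3, Bnip3l, Fundc1, Pink1, Sqstm1, Map1lc3b and Gabarapl1. They were read in 6272 filtered cells of 9862 called cells, in 9 cell classes and 2 libraries, next to the share of UMIs (counted molecules) from the mitochondrial genome in each cell. The set was chosen with mutant to control ratios of these same cells in view, so the ratios below describe the members and support nothing on their own.

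Mitophagy is the removal of mitochondria by autophagosomes that fuse with lysosomes. Receptors in the outer mitochondrial membrane (BNIP3, its relative NIX encoded by Bnip3l, and FUNDC1) bind ATG8-family proteins such as LC3B (Map1lc3b) and GABARAPL1 on the growing autophagosome membrane. The kinase PINK1 instead marks damaged mitochondria for ubiquitination, and p62 (Sqstm1) links ubiquitinated cargo to the ATG8 proteins. Bnip3 and Bnip3l are textbook targets of the hypoxia-inducible factors, and NIX is best known for clearing mitochondria from maturing red cells.

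The control library carried Isl1-Cre;R26R-eYFP and the mutant library Isl1-Cre;R26R-eYFP;Pik3caH1047R, so that in both the Isl1 promoter drove Cre and recombination switched on the reporter, and the mutant in addition expressed the activating Pik3ca allele in recombined cells. eYFP thus marks cells of the Isl1 lineage and not current Isl1 expression. The mice were on a mixed C57BL/6J and ICR background. Each library pooled eYFP+ cells sorted from 3 embryos at E13.5, and there was 1 library per genotype. No difference between genotypes therefore has a replicate check, and no test was made. Intervals of levels and ratios cover counting error only, and those of shares of cells cover the draw of cells within 1 library. None covers the spread between embryos. The files held 4505 control and 5357 mutant cells, of which 2783 and 3489 had more than 2000 and fewer than 9000 genes and under 10% mitochondrial UMIs, with median depths of 20412 and 16839 UMIs. The libraries stood apart in sex: 95.5% of control cells were female-like (Xist without Y-linked UMIs), while the mutant held 33.6% female-like and 53.3% male-like (Y-linked UMIs without Xist) cells, so sex was matched only among female-like cells. Those of the control and the mutant still came from different embryos, and embryo and genotype cannot be told apart. The libraries shared 28 cell barcodes, 12 of them among filtered cells.

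Classes were named from clusters by marker genes, and the members themselves were left out of the clustering. EC-like (endothelial) cells numbered 161 in the control and 753 in the mutant, with all 12 endothelial markers detected and a summed marker level of 6448 and 6589 UMIs per 1000000 (CPM). The other classes were branchial muscle-like (889 and 838 cells), mesenchyme-like (530 and 506), neuron-like (192 and 471), epithelium-like (212 and 306), macrophage-like (174 and 176), cardiomyocyte-like (54 and 184) and mesothelium-like (70 and 68). Cluster 5 (348 and 74 cells), led by Adh1, Wnt2, Slc38a5 and Tbx4, stayed unnamed. The labels give the tissue as pharyngeal arch, while the upper body above the liver was dissected and the cells included cardiomyocyte-like cells and 47 hepatoblast-like cells, all of the latter from the mutant library. Mesenchyme-like cells had a summed marker level of 11840 CPM in the control and 3684 CPM in the mutant, and macrophage-like cells 6507 and 2603 CPM. The part of these marker differences in the member ratios of both classes was not tested. The highest sum of the mesenchyme markers in another class was 7001 CPM in the control and 6536 CPM in the mutant. In the mutant it thus exceeded that of the mesenchyme-like cells. Branchial muscle markers reached 25143 and 30532 CPM in another class, against 7509 and 5436 CPM in branchial muscle-like cells. At a finer resolution (0.8) the macrophage-like class divided into a cluster led by C1qc, C1qb and Cxcl2 (92 control and 41 mutant cells) and a cluster led by Mpo, Ptprcap and Il7r (82 and 135 cells), so different clusters held most of it in the libraries. On its own the Mpo-led cluster took no name: 7 markers of another listed class were raised in it and 5 of macrophages. Its leading genes also included Trbc2, Nkg7 and Ltb. The name erythroid was withheld, by a rule set after the clusters were seen, from clusters with Mpo, Il7r or Trbc2 among their leading genes. The name macrophage-like therefore rests on the class as a whole. It does not hold for the Mpo-led cells taken alone, which were 135 of the 176 mutant cells of the class.

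All 7 members are protein-coding genes in GENCODE on GRCm38, and each spans introns and exons of its locus. Bnip3 lies at chr7:138890836-138909519, Bnip3l at chr14:66985239-67008877, Fundc1 at chrX:17556564-17572325, Pink1 at chr4:138313409-138326307 and Sqstm1 at chr11:50199366-50210827, all on the minus strand. Map1lc3b lies at chr8:121590361-121598760 and Gabarapl1 at chr6:129533160-129542346, both on the plus strand. The antisense gene Gm45507 overlaps Bnip3 and had 25 control and 81 mutant UMIs against 2733 and 18974 for Bnip3. Mrnip overlaps Sqstm1 on the opposite strand and had 977 and 946 UMIs against 10659 and 10670 for Sqstm1. Zcchc14 overlaps Map1lc3b on the opposite strand and had 2170 and 2369 UMIs against 9826 and 12097 for Map1lc3b. Gm20388 overlaps Map1lc3b on the same strand and was not in the matrices. 1700101I11Rik, opposite to Gabarapl1, had 33 and 37 UMIs against 1947 and 2925.

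RefSeq promoter windows were matched for 6 of the 7 members. None was matched for Bnip3l, so its promoter was not read and cannot be set beside that of Bnip3. The windows below run from 250 to 31 bases before the annotated start on GRCm38.p6 and are shown for the 4 members with a window whose EC-like ratio had an interval that left out 0. They were read because Bnip3 differed most between the libraries. Capitals mark matches, on either strand, to 6 motifs: the hypoxia-response cores ACGTG and GCGTG, the E-box CACGTG, the antioxidant-type TGACNNNGC, the forkhead core TGTTTAC and the CHOP/ATF4-type TGATGNAA.
Bnip3, chr7:138909537-138909756, minus strand: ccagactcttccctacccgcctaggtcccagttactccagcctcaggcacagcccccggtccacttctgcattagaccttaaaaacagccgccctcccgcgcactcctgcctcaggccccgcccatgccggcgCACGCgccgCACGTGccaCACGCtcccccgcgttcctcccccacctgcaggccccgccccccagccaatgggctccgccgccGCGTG
Sqstm1, chr11:50210851-50211070, minus strand: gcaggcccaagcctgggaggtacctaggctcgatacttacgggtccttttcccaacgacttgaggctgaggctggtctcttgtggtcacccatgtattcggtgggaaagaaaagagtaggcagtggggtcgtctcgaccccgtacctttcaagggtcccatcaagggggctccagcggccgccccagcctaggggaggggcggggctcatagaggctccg
Pink1, chr4:138326327-138326546, minus strand: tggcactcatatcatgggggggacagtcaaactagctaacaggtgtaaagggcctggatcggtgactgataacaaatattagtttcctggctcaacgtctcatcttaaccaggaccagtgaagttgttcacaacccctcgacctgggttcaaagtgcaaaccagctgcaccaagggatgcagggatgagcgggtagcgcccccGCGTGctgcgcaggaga
Map1lc3b, chr8:121590188-121590407, plus strand: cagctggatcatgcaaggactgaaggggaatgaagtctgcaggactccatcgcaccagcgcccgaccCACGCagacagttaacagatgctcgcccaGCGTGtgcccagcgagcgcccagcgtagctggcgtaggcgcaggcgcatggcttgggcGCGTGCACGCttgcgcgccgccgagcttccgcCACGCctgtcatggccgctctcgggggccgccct
Of these windows only that of Bnip3 held ACGTG, as part of the palindrome CACGTG from position -108 to -103, where the motifs ACGTG and CACGTG overlap. ACGTG was present in 14.4% of 32817 promoter windows of the same length and CACGTG in 5.01%. GCGTG was found 3 times in the Bnip3 window, 5 times in that of Map1lc3b, with an adjoining pair, and once in that of Pink1, against a presence in 25.1% of all windows. The windows of Sqstm1, Fundc1 and Gabarapl1 held none of the 6 motifs. That of Fundc1 (chrX:17572038-17572257) lay wholly within the GENCODE span of the gene, so the bases before the GENCODE start were not read. The end of the Map1lc3b window also lay within the GENCODE span of its gene. TGACNNNGC (8.70% of all windows), TGTTTAC (2.80%) and TGATGNAA (3.05%) had no match in the 6 windows. G and C made up 70.9% of the Bnip3 window, 68.2% of that of Map1lc3b, 61.8% of that of Sqstm1 and 53.6% of that of Pink1. The median over all windows was 51.8%, and the percentages of windows with a motif were not matched for this. A match describes letters in the window and nothing about binding.

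Among the outer membrane receptors, Bnip3 was low in control EC-like cells and abundant in mutant ones. It had 40 UMIs in the control and 3850 in the mutant, or 11.3 CPM (8.09 to 15.4) and 255 CPM (247 to 263). The log2 ratio of mutant over control was 4.49 (4.05 to 4.98), a 22.5-fold difference. It ranked 139th of 14494 genes with at least 20 UMIs, a rank that places any gene without control UMIs above it. After every cell was thinned to 5000 UMIs, 6.33% of 158 control cells (3.08 to 11.3) and 52.9% of 718 mutant cells (49.2 to 56.6) held a Bnip3 UMI. No class is known to lack Bnip3, and the lowest thinned share in another class was 11.8% of control cells (macrophage-like) and 36.1% of mutant cells (cluster 5). The middle mutant EC-like cell had 1.48 Bnip3 UMIs per 10000 and the cell at the 90th percentile 7.15, so the level was uneven within the class.

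Bnip3l (NIX) was detected well in both libraries and differed less. EC-like cells had 148 CPM (136 to 161) in the control and 238 CPM (230 to 246) in the mutant, with a log2 ratio of 0.68 (0.55 to 0.82). Its thinned share of cells went from 43.0% to 58.9%. Fundc1, the third outer membrane receptor, had 28.6 and 27.4 CPM, with an interval of the log2 ratio from -0.38 to 0.27 that included 0. Fundc1 is X-linked, and in female-like EC-like cells alone its log2 ratio was -0.06.

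Of the 7 members, 2 (Bnip3 and Bnip3l) lay past 1.5-fold higher in EC-like cells and none past 1.5-fold lower. Of all genes with at least 20 UMIs in these cells, 14.6% lay past 1.5-fold higher and 14.2% past 1.5-fold lower. The median log2 ratio of the members was -0.06, equal to that of all genes at this precision (-0.06).

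The members that deal with ubiquitinated cargo differed little and in opposite directions. Sqstm1 (p62) had 146 CPM in control and 191 CPM in mutant EC-like cells, with a log2 ratio of 0.39 (0.26 to 0.53). Pink1 was lower, at 23.8 and 17.5 CPM with a log2 ratio of -0.44 (-0.80 to -0.07) from 84 and 264 UMIs. Both ratios were smaller than 1.5-fold. The ATG8-family members were close to equal: Map1lc3b had 198 and 180 CPM (log2 ratio -0.14, -0.26 to -0.02) and Gabarapl1 46.7 and 43.0 CPM (-0.12, -0.37 to 0.13).

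Detection per cell was read from the thinned cells as well. Of the 158 thinned control EC-like cells, 10.1% (5.90 to 15.9) held UMIs of at least 4 of the 7 members, against 25.2% (22.1 to 28.6) of the 718 mutant cells. The median cell held 2 members in the control and 3 in the mutant, and no cell in either library held all 7. The difference rested on Bnip3: with it left out, 8.86% of control cells (4.93 to 14.4) and 10.2% of mutant cells (8.05 to 12.6) held at least 4 of the other 6 members, with a median of 2 in both libraries. The thinned shares of Fundc1 (15.8% in the control and 13.2% in the mutant), Pink1 (12.0% and 8.22%) and Map1lc3b (58.2% and 54.5%) had overlapping intervals. That of Gabarapl1 was close to equal, at 19.0% and 18.9%.

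**Figure D1:**
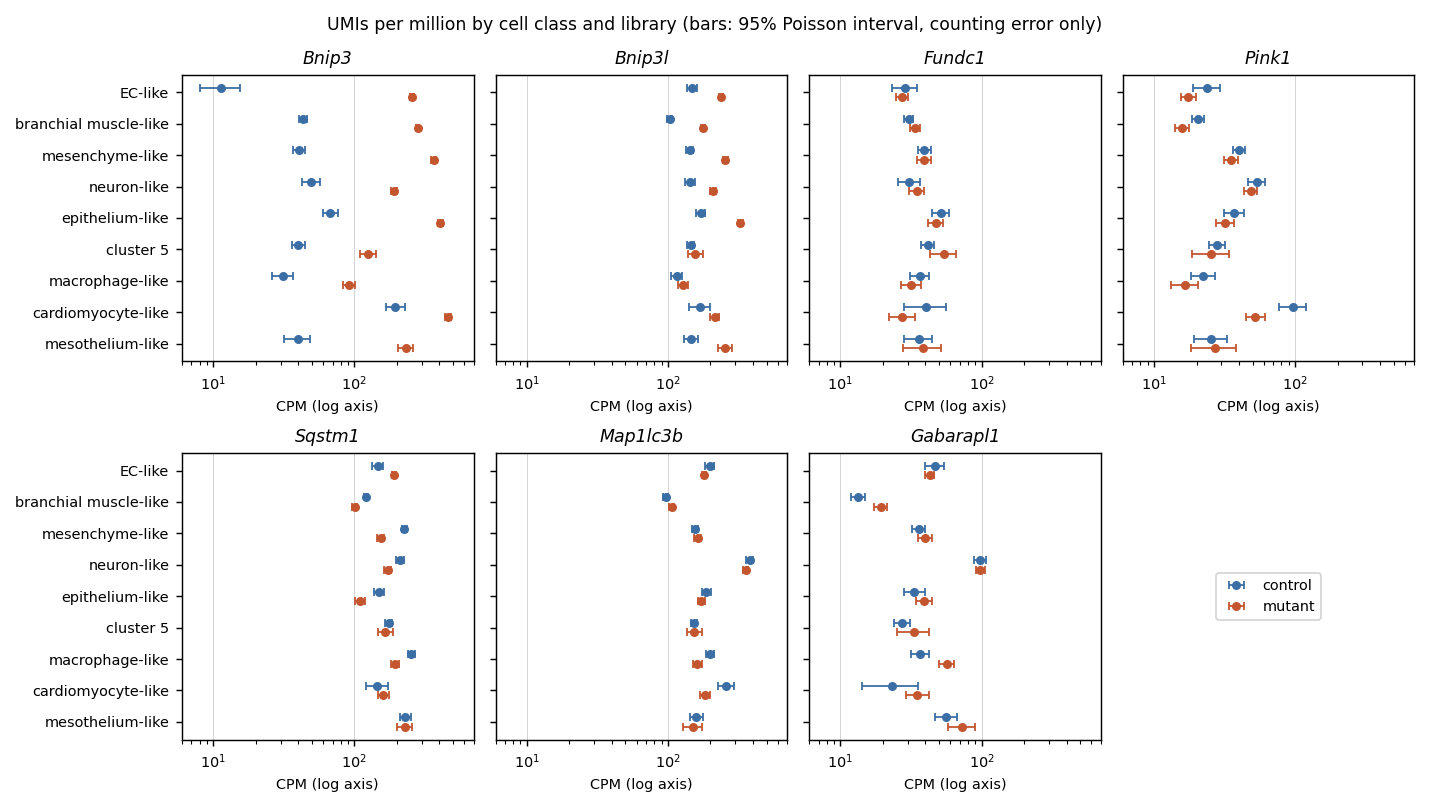
Level of each member in the 9 cell classes. The x axis gives CPM on a log scale, points are libraries (control and mutant) and bars are exact Poisson 95% intervals. The control EC-like point of Bnip3 at 11.3 CPM lies lowest of all classes, and the mutant point of Bnip3 lies to the right of the control point in every class.

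Control EC-like cells had the lowest Bnip3 level of the 9 classes, and its interval did not overlap that of the next class, macrophage-like cells at 31.1 CPM. The order in the control ran from cardiomyocyte-like cells at 195 CPM through epithelium-like cells at 67.7 CPM and neuron-like cells at 49.4 CPM to branchial muscle-like, mesenchyme-like, cluster 5 and mesothelium-like cells between 39.6 and 43.1 CPM. From neuron-like to macrophage-like cells, each neighbour in that order overlapped the next. In the mutant the order was cardiomyocyte-like (462 CPM), epithelium-like (406), mesenchyme-like (364), branchial muscle-like (281), EC-like (255), mesothelium-like (230), neuron-like (190), cluster 5 (125) and macrophage-like cells (91.6). Only EC-like and mesothelium-like cells overlapped among neighbours there. The highest class exceeded the lowest 17.2-fold in the control and 5.04-fold in the mutant.

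Bnip3 was past 1.5-fold higher in all 9 classes. The log2 ratio was 3.17 (3.01 to 3.32) in mesenchyme-like, 2.70 (2.61 to 2.80) in branchial muscle-like, 2.58 (2.40 to 2.77) in epithelium-like and 2.54 (2.18 to 2.91) in mesothelium-like cells. It was 1.95 (1.73 to 2.17) in neuron-like cells, 1.65 (1.40 to 1.90) in cluster 5, 1.56 (1.29 to 1.84) in macrophage-like and 1.24 (1.01 to 1.48) in cardiomyocyte-like cells. The EC-like interval lay above that of every other class, while their mutant level was the fifth highest of the 9.

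Bnip3l was higher past 1.5-fold in 4 of the 8 other classes: epithelium-like (170 to 326 CPM, log2 ratio 0.94), mesenchyme-like (143 to 255 CPM, 0.84), mesothelium-like (146 to 253 CPM, 0.79) and branchial muscle-like cells (103 to 177 CPM, 0.78). Neuron-like cells came near that size at 0.53 (0.39 to 0.67) and cardiomyocyte-like cells had 0.35 (0.09 to 0.62). In cluster 5 (0.10, -0.09 to 0.29) and macrophage-like cells (0.15, -0.01 to 0.32) the interval included 0. In the control, its levels spanned a narrow 1.65-fold range over the classes, so Bnip3l lacked the endothelial low point that Bnip3 showed. Among female-like cells alone Bnip3l stayed past 1.5-fold in epithelium-like cells (0.70) and not in mesothelium-like (0.58), mesenchyme-like (0.56) or branchial muscle-like cells (0.55).

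Past 1.5-fold, 2 members were higher in branchial muscle-like, mesenchyme-like, epithelium-like and mesothelium-like cells (Bnip3 and Bnip3l), where 16.7%, 12.3%, 10.8% and 22.8% of all genes were. In macrophage-like and cardiomyocyte-like cells the 2 were Bnip3 and Gabarapl1, against 11.4% and 13.6% of all genes. In neuron-like cells and cluster 5 it was Bnip3 alone, against 8.46% and 10.8%. Pink1 was the only member past 1.5-fold lower in any class, in cardiomyocyte-like cells, where 21.5% of all genes were lower past that size. In female-like cardiomyocyte-like cells, fewer than 20 in each library, its log2 ratio was -0.036. Most of the 54 control cells of this class took no sex call, although 95.5% of all filtered control cells were female-like. The value therefore covers a small part of the class and is a weak check for sex. The Gabarapl1 call in macrophage-like cells was kept in 11 of 14 alternatives, with 0.23 at resolution 0.8.

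**Figure D2:**
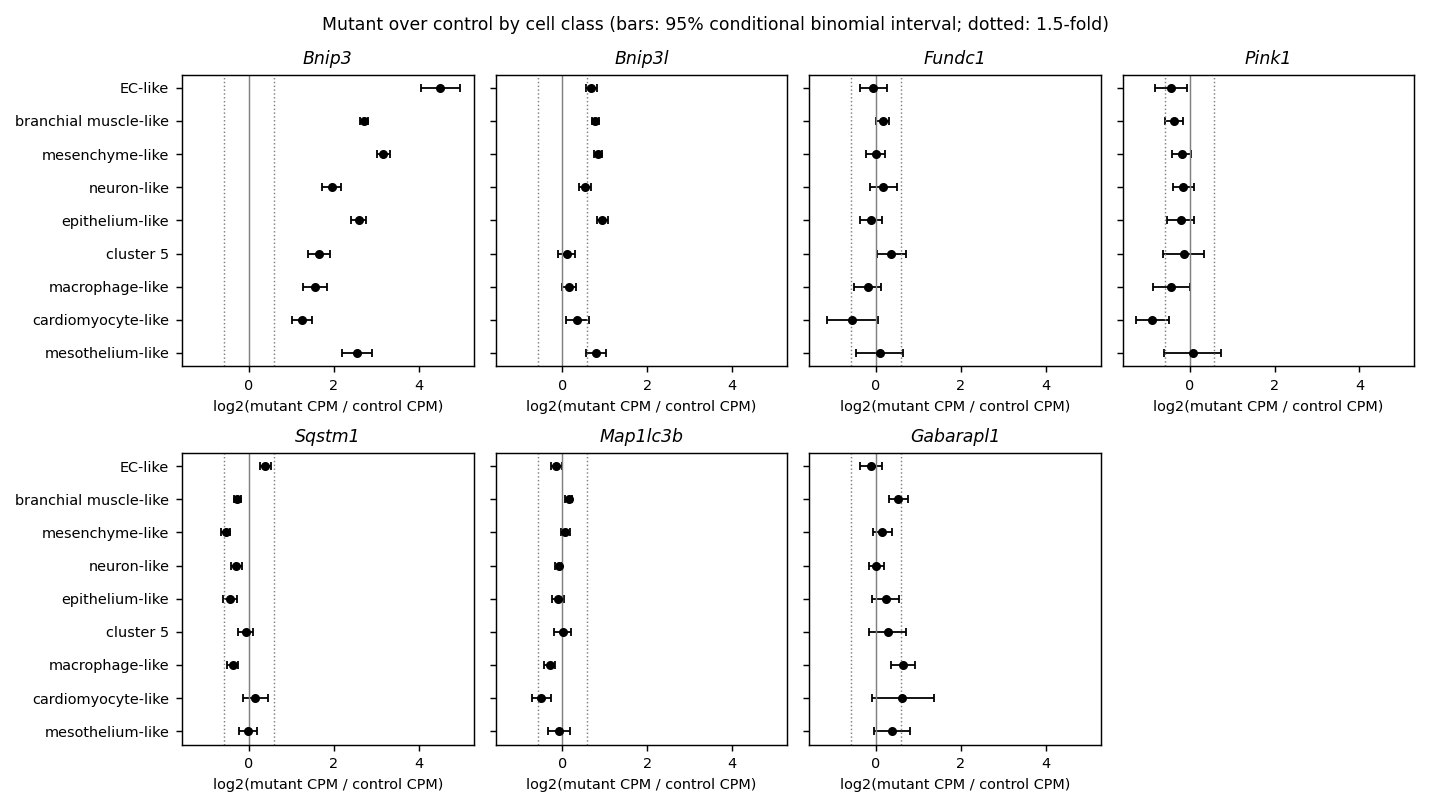
Log2 ratio of mutant over control CPM for each member in the 9 cell classes. Points are ratios, bars are conditional binomial 95% intervals, the solid line marks 0 and the dotted lines mark 1.5-fold. All 9 Bnip3 points lie to the right of the dotted line, while Sqstm1 lies to the right of 0 in EC-like cells and to the left of 0 in 5 other classes with intervals that leave out 0.

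Sqstm1 was higher in the mutant by its interval in EC-like cells alone. It was lower in mesenchyme-like cells (225 to 154 CPM, log2 ratio -0.55, -0.65 to -0.45), epithelium-like (149 to 110 CPM, -0.44), macrophage-like (253 to 194 CPM, -0.38), neuron-like (211 to 172 CPM, -0.29) and branchial muscle-like cells (121 to 100 CPM, -0.27). In cluster 5, cardiomyocyte-like and mesothelium-like cells the interval included 0. None of these reached 1.5-fold, and the difference between classes was not tested. In macrophage-like cells the direction turned among female-like cells (254 and 274 CPM, log2 ratio 0.11). By cluster within that class, Sqstm1 was 285 and 290 CPM in the C1qc-led cells and 217 and 164 CPM in the Mpo-led cells.

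Pink1 was highest in cardiomyocyte-like cells in both libraries, at 95.8 CPM in the control and 52.3 CPM in the mutant. The log2 ratio there was -0.87 (-1.26 to -0.48). Neuron-like cells followed at 53.7 and 48.4 CPM, and the lowest level in both libraries was that of branchial muscle-like cells, 20.5 and 15.9 CPM. Fundc1 ranged from 28.6 to 51.6 CPM over the control classes, and its interval left out 0 only in cluster 5 (log2 ratio 0.36, 0.02 to 0.70).

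Map1lc3b and Gabarapl1 were both highest in neuron-like cells. Map1lc3b had 378 CPM there in the control and 356 CPM in the mutant, next to 96.2 and 106 CPM in branchial muscle-like cells, the lowest class. Gabarapl1 had 97.4 and 97.9 CPM in neuron-like and 13.3 and 19.2 CPM in branchial muscle-like cells. Between libraries, Map1lc3b was lower in cardiomyocyte-like cells (-0.50, -0.73 to -0.27) and macrophage-like cells (-0.30, -0.44 to -0.16). Gabarapl1 was higher in macrophage-like cells (36.7 to 56.6 CPM, log2 ratio 0.63, 0.35 to 0.91) and branchial muscle-like cells (0.53, 0.31 to 0.75), and in cardiomyocyte-like cells its ratio of 0.60 came from 20 control UMIs with an interval that included 0. Within the macrophage-like class Gabarapl1 was 29.4 and 34.5 CPM in the C1qc-led cells, with overlapping intervals, and 44.9 and 63.5 CPM in the Mpo-led cells.

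Because sex differed between the libraries, the mutant cells were also divided by sex. Female-like EC-like cells had 12.0 CPM of Bnip3 in the control (145 cells) and 172 CPM in the mutant (251 cells), while the 412 male-like mutant EC-like cells had 309 CPM (298 to 321). For Bnip3l the 3 values were 147, 207 and 254 CPM, and for Sqstm1 148, 172 and 204 CPM. In female-like cells alone the log2 ratios in EC-like cells were 3.85 for Bnip3, 0.50 for Bnip3l and 0.22 for Sqstm1, so Bnip3l no longer lay past 1.5-fold.

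Male-like mutant cells were also higher than female-like mutant cells in Bnip3 in other classes. The female-like and male-like levels were 221 and 461 CPM in mesenchyme-like, 231 and 543 CPM in epithelium-like, 209 and 331 CPM in branchial muscle-like, 147 and 200 CPM in neuron-like and 117 and 303 CPM in mesothelium-like cells, with no overlap of intervals. In macrophage-like cells they were 74.5 and 93.9 CPM and overlapped. Male-like and female-like cells came from different embryos of the pool, and sex, embryo and dissection cannot be told apart.

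**Figure D3:**
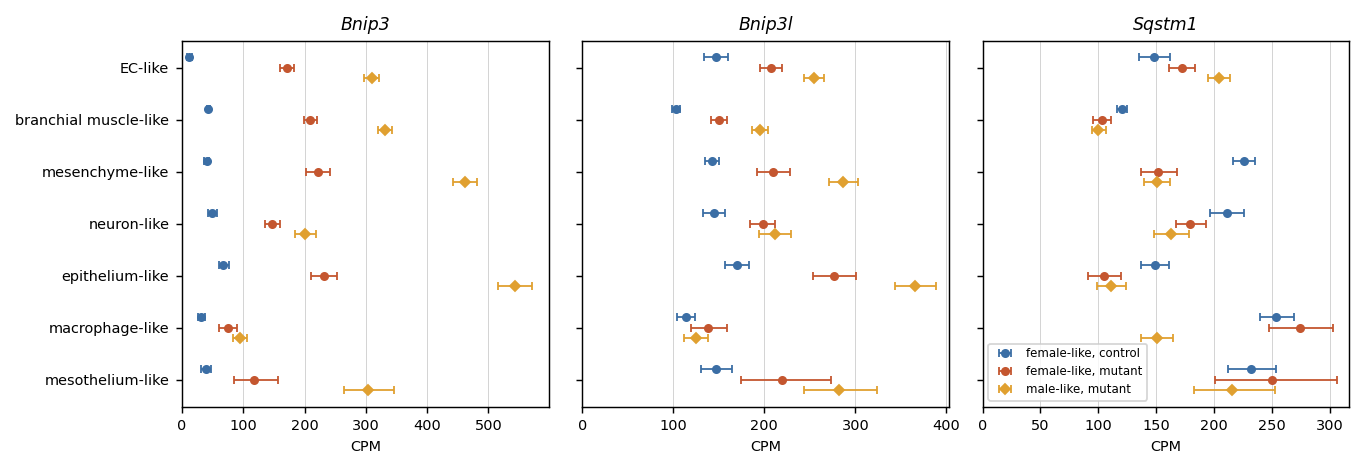
Levels of Bnip3, Bnip3l and Sqstm1 in female-like control, female-like mutant and male-like mutant cells of the classes that held all 3 groups. The x axis gives UMIs per 1000000, points are sums over the cells of a group and bars are exact Poisson 95% intervals. For Bnip3 the female-like mutant points lie to the right of the female-like control points in every class drawn, from 74.5 CPM in macrophage-like to 231 CPM in epithelium-like cells.

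The endothelial class was not uniform. At a finer resolution it split into a cluster led by Fabp4, Kcne3 and Depp1 (103 control and 516 mutant cells), a cluster led by Bmx, Gja4 and Eln (37 and 148) and a cluster led by Tll1, Cyyr1 and Itga2 (21 and 90). Bnip3 was 10.0 and 279 CPM in the first, 13.7 and 147 CPM in the second and 18.0 and 300 CPM in the third cluster, each pair giving control and mutant. The control values rest on 26, 9 and 5 UMIs. Bnip3l followed with 151 and 262 CPM in the first, 169 and 158 CPM in the second and 68.3 and 178 CPM in the third, the control value of the last resting on 19 UMIs. In the Bmx, Gja4 and Eln cluster the Bnip3l intervals of the libraries overlapped, and its Sqstm1 level was 201 CPM in the control and 171 CPM in the mutant.

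The mitochondrial share of UMIs was lower in mutant EC-like cells taken as a class, but not in each of its clusters. The median cell had 2.01% in the control (quartiles 1.37 and 3.41) and 1.55% in the mutant (0.94 and 2.74), a difference of -0.46 percentage points. Control and mutant medians were 1.69% and 1.25% in the Fabp4, Kcne3 and Depp1 cluster and 2.03% and 2.10% in the Bmx, Gja4 and Eln cluster. In the Tll1, Cyyr1 and Itga2 cluster they were 4.65% and 3.48%, from 21 and 90 cells. For the class as a whole, other classes compare as follows. The difference was -0.32 in epithelium-like cells, -0.28 in branchial muscle-like cells, -0.21 in cluster 5 and -0.10 in neuron-like cells, and it was close to 0 in mesenchyme-like (-0.01), macrophage-like (0.05) and mesothelium-like cells (0.08). A share of UMIs is not a number of mitochondria: it moves with the rest of the transcriptome and with cell quality, and the median depth of EC-like cells was 20203 UMIs in the control and 17313 in the mutant.

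Cardiomyocyte-like cells stood apart, with a median mitochondrial share of 0.05% in both libraries and the highest Bnip3 levels. In sums over the class, unlike in the median cell, mitochondrial mRNAs were lower in the mutant, with a median log2 ratio of -1.21. Of the 13, 10 were past 1.5-fold lower, where 21.5% of all genes were. The part of single cells with a higher share in these sums was not tested. The level of Malat1, a nuclear RNA, in cardiomyocyte-like cells was 1681 CPM in the control and 1348 CPM in the mutant, the lowest of the 9 classes. Among all called cells assigned by marker levels, with no limit on genes or mitochondrial share, cardiomyocyte-like cells had median shares of 0.41% and 0.23%. Of these cells, 3.77% and 2.29% reached 10%. These cells differed from the filtered ones in both limits and in how they were assigned. Whether the share bears on the Bnip3 level was not tested.

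Within mutant EC-like cells, Bnip3 and Bnip3l were highest in the cells with the lowest mitochondrial share. When the 753 cells were ranked by that share and divided into 3 groups of 251, Bnip3 was 364, 199 and 155 UMIs per 1000000 non-mitochondrial UMIs from the lowest to the highest group. Bnip3l was 305, 205 and 180, and Sqstm1 212, 196 and 152. Map1lc3b did not follow that order (173, 205 and 159), nor did Pink1 (13.8, 21.1 and 19.6) or Gabarapl1 (37.8, 52.3 and 38.4).

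The groups also differed in depth, with median UMIs of 21052, 21823 and 9271, and the part of depth in the order was not tested. They differed in makeup too: the Fabp4, Kcne3 and Depp1 cluster gave 90.8%, 70.1% and 44.6% of their cells, the Bmx, Gja4 and Eln cluster 6.77%, 24.3% and 27.5%, and male-like cells 59.4%, 50.2% and 54.6%. Ranked within a cluster, Bnip3 was 389, 250 and 172 in the Fabp4, Kcne3 and Depp1 cluster, 240, 54.7 and 100.3 in the Bmx, Gja4 and Eln cluster and 549, 176 and 158 in the Tll1, Cyyr1 and Itga2 cluster. Ranked within a sex it was 252, 117 and 117 in female-like and 409, 270 and 177 in male-like cells, so the lowest group was highest in each. Between clusters the order was another, since the Tll1, Cyyr1 and Itga2 cluster had the highest median mitochondrial share (3.48%) and 300 CPM of Bnip3 (265 to 339). That interval overlapped the one of the Fabp4, Kcne3 and Depp1 cluster (269 to 288). Across the 753 cells, Spearman's rho with the mitochondrial share was -0.33 for Bnip3, -0.29 for Bnip3l and -0.46 for depth itself, as a description over cells of 1 library. It was -0.19 for Sqstm1, -0.14 for Gabarapl1, -0.12 for Map1lc3b, -0.11 for Fundc1 and -0.06 for Pink1, so all 7 members were negative. Across the 161 control EC-like cells rho was -0.37 for Map1lc3b, -0.28 for Bnip3l, -0.25 for Gabarapl1 and -0.16 for Fundc1. For Pink1, Bnip3 and Sqstm1 it was -0.10, -0.09 and -0.06 there, and for depth -0.41. In the control, Bnip3 was 12.5, 8.09 and 16.4 in groups of 53 or 54 cells, with overlapping intervals from 17, 11 and 12 UMIs, and Bnip3l was 163, 160 and 114.

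In branchial muscle-like mutant cells the order was absent, with Bnip3 at 307, 256 and 305. In mesenchyme-like mutant cells it was 460, 281 and 339. Spearman's rho of Bnip3 with the mitochondrial share in mutant cells was -0.26 in cluster 5 and -0.21 in epithelium-like cells. It was -0.20 in both mesothelium-like and mesenchyme-like cells and -0.14 in cardiomyocyte-like cells. In branchial muscle-like and neuron-like cells it was -0.08, and in macrophage-like cells 0.02. The rho of depth with the share was negative in each of these classes. Just outside the 10% limit, 46 control and 26 mutant cells within the same limits on genes had 21.3 and 120 Bnip3 UMIs per 1000000 non-mitochondrial UMIs, from 6 and 21 UMIs, against 44.1 and 276 in the cells inside it.

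**Figure D4:**
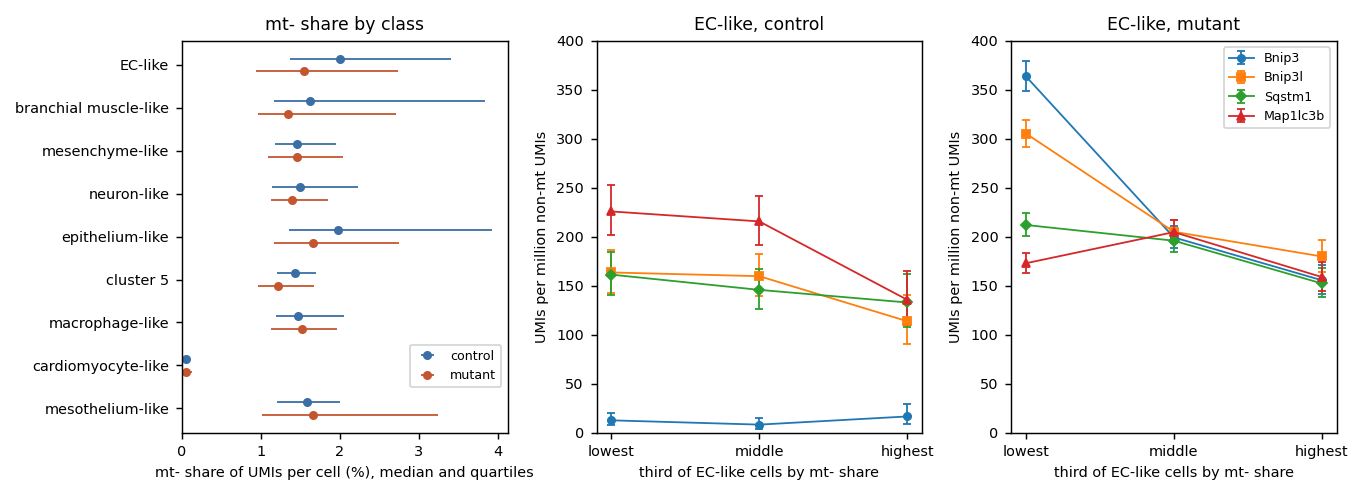
Left, mitochondrial share of UMIs per cell by class and library, with medians as points and quartiles as bars. Middle and right, UMIs per 1000000 non-mitochondrial UMIs of 4 members in EC-like cells ranked into 3 equal groups by mitochondrial share, in the control and the mutant library, with Poisson 95% intervals. In the mutant, Bnip3 goes from 364 in the lowest to 155 in the highest group.

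The pathway around the members was read from 12 further lists in EC-like cells, of which each count is out of the genes with at least 20 UMIs, beside the 14.6% and 14.2% of all genes past 1.5-fold higher and lower and a median of all genes of -0.06. Of 14 other receptors, 1 was higher, Optn (log2 ratio 1.28, from 16 and 166 UMIs), a ubiquitin-binding receptor, and 1 was lower, Tecpr1 (-0.61), which acts in autophagosome maturation. Their median was -0.26, and 1 had an interval above 0 and 6 below, against 16.5% and 23.4% of all genes. Of the 3 other ATG8 proteins, none passed 1.5-fold (median -0.15), although the interval of Gabarap left out 0 (0.41, 0.31 to 0.51).

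None of the genes upstream in the pathway passed 1.5-fold. This held for the 6 genes of the ULK1 kinase complex (median -0.29, 4 with intervals below 0), the 6 of the class III PI3K complex (median -0.12) and the 17 of ATG8 conjugation and phagophore growth (median -0.18). It held as well for the 19 PINK1-Parkin and outer membrane partners (median -0.04) and the 3 genes for turnover of BNIP3 and NIX (median 0.09). Of 16 lysosomal genes, 2 were past 1.5-fold higher, among them the protease gene Ctsd (149 to 248 CPM, log2 ratio 0.74). Of the lysosomal genes, 8 had intervals above 0 and none below, against 16.5% and 23.4% of all genes, with a median of 0.24. Among genes with at least 1000 UMIs in these cells the shares were 28.4% and 29.3%, since intervals narrow with the count.

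Of 11 transcription factors known to act on the members, 4 were past 1.5-fold higher: Ddit3 (CHOP, 15.9 to 42.0 CPM, log2 ratio 1.41), Atf4 (101 to 215 CPM, 1.09), Foxo3 (23.5 to 49.1 CPM, 1.06) and Nfe2l2 (NRF2, 51.3 to 93.6 CPM, 0.87). Epas1, which encodes HIF-2alpha, was past 1.5-fold lower (96.6 to 58.0 CPM, -0.74). Of 11 mitochondrial genome and biogenesis factors, the coactivator gene Ppargc1a was past 1.5-fold higher from only 4 and 50 UMIs (named after its value was seen), and the related gene Ppargc1b was past 1.5-fold lower (29.2 to 13.7 CPM, -1.10). The median of the 11 was -0.21.

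Of the 13 mRNAs encoded by the mitochondrial genome, 3 were past 1.5-fold lower and none higher, with a median of -0.43. These are the genes summed in the mitochondrial share, so their ratios restate its difference and are no separate result. Intervals lay below 0 for 11 of them and above 0 for none, against 29.3% and 28.4% of genes with at least 1000 UMIs in these cells, whose intervals are narrow, and mt-Nd1 (-0.74), mt-Nd4l (-0.64) and mt-Nd4 (-0.60) were past 1.5-fold. Of 15 dissociation-induced genes, 6 were higher and 2 lower past 1.5-fold. Hspa1b (14.7 to 451 CPM, 4.94), Hspa1a (20.4 to 495 CPM, 4.60), Hsph1 (1.81) and Ier3 (1.32) were higher, and Fosb (-0.79) and Egr1 (-0.60) were lower. Handling of the tissue can move these heat shock and immediate early genes, and their part in the member ratios was not tested.

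Genes with a pattern like that of each member were sought over the 18 sums of class and library, by Pearson's r of log2(CPM + 10) among 4416 genes that reached 100 CPM in any sum. These sums share 2 libraries, so the values are descriptions. For Bnip3 the 5 closest were Higd1a (r = 0.93), a mitochondrial protein gene, and the glycolysis and pyruvate genes Pfkl (0.88), Pdk1 (0.88), Pkm (0.88) and Pgk1 (0.87). For Bnip3l they were Egln1 (0.89), which encodes the oxygen-sensing hydroxylase PHD2, Ndufa4l2 (0.86), Higd1a (0.83), Ndrg1 (0.82) and the glucose transporter gene Slc2a1 (0.82). Bnip3 and Bnip3l had r = 0.80 with each other, 0.40 over the 9 control sums and 0.79 over the 9 mutant sums. Bnip3 and Pink1 had r = 0.82 over the control sums and 0.47 over the mutant sums. The pooled values, those of the closest genes included, take in the mutant and control difference by which the members were chosen. The closest genes were not sought within a single library.

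The closest genes of the remaining members were others. Map1lc3b was closest to its family member Gabarapl2 (0.91), then Vps28 (0.89), Ap2m1 (0.86), Gng2 (0.85) and Tcf25 (0.84), and Gabarapl1 to Xpr1 (0.86), Serpini1 (0.84), Idh1 (0.83), Rtn1 (0.82) and Kidins220 (0.81). Pink1 was closest to Klhdc8b (0.95), Rtl8a (0.90), Mtus2 (0.89), Rnf10 (0.88) and Ppp1r1a (0.88). Genes close to Sqstm1 included Gnb2 (0.80), Atp6v0c (0.74), Nptn (0.73) and Rab1a (0.73), and Fundc1 was closest to Acot1 (0.81), H2afv (0.78), Itgb5 (0.75), Foxp4 (0.74) and Sumo3 (0.71). Among the members, Map1lc3b and Gabarapl1 had r = 0.69, Map1lc3b and Pink1 0.66, and Bnip3 and Sqstm1 -0.37.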

How the data were processed

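The deposited values were UMI counts per gene and called cell, made by the authors with Cell Ranger 7.1.0 on mm10 and not normalized. The genotype of each library came from its label. Depths are given above, and with 1 library per genotype the precision is that of counting UMIs or cells alone. Kept cells had over 2000 and under 9000 genes and under 10% mt- UMIs.

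Both libraries were integrated and clustered in Seurat 5.3.0 (30 principal components, 20 neighbours, resolution 0.25, 15 clusters, 147 list genes left out), with cell-cycle scores regressed out. A cluster took the name of a class with at least 3 of 12 markers raised 2-fold and found in 10% of its cells. A further rule was set after the clusters were seen. It withheld the name mesenchyme from clusters with the smooth muscle genes Myh11 or Actg2 among their leading genes. It withheld the name erythroid from clusters with Mpo, Il7r or Trbc2 there, and did not bear on the name macrophage. A class entered a comparison if each library held 50 or more of its cells.

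CPM are the UMIs of a gene over all cells of a class in a library, per 1000000 UMIs of that sum. Intervals (95%) were exact Poisson for CPM, Clopper-Pearson for shares of cells and, for ratios, binomial given the summed count. The ratio code was tested on simulated data. Genes needed 20 UMIs over both libraries, and a 0 entered medians at a floor of 3 UMIs. Cells under 5000 UMIs (61 control, 173 mutant) were left out of thinned values. Sex-like calls used Xist and 4 Y-linked genes.

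The members and all gene lists were chosen with earlier results of these data known. The named genes were all 7 members, the list genes past 1.5-fold in EC-like cells with at least 100 UMIs (at most 4 per direction and list) and the 5 closest genes of each member; some that the rule names are not reported here. Doublets were not removed from the values given. Scrublet (scanpy 1.11.5) marked 0 control and 1 mutant cells by its own threshold and so did not work as a caller, and the 162 control and 230 mutant cells with the highest scores were removed in an alternative. Other alternatives changed the scaling (edgeR 4.0.16), the cells or the classes. Annotation was GENCODE vM21. Python 3.11.15, scipy 1.17.1 and R 4.3.3 were used.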

Additional observations from a re-analysis of the deposited data

Results flagged for a closer look

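Sqstm1 was flagged because its ratio had opposite signs in classes of the same comparison. Its log2 ratio was above 0 by its interval in EC-like cells (0.39) and below 0 in branchial muscle-like (-0.27), mesenchyme-like (-0.55), neuron-like (-0.29), epithelium-like (-0.44) and macrophage-like cells (-0.38). Map1lc3b was flagged in the same way, with -0.14 in EC-like and 0.14 in branchial muscle-like cells. Among female-like cells alone, Map1lc3b in EC-like cells was -0.000758 and Sqstm1 in macrophage-like cells 0.11. With 1 library per genotype, the difference between classes was not tested.

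Bnip3 was flagged in cells that no comparison used. In the 1722 control and 1868 mutant called cells outside the filters on genes and mitochondrial share it had 51.3 and 255 CPM, a log2 ratio of 2.31 (2.09 to 2.54). These cells were not divided into classes, and part of their UMIs may be free RNA from other cells, which was not tested.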

How the results depend on the processing

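No paired analysis was possible because each genotype had 1 library, and for the same reason no replicate could be left out. Over 14 alternatives, the number of members past 1.5-fold higher in EC-like cells stayed at 2 except in female-like cells and in G1 cells, where it was 1 (Bnip3) in both. In the other classes the number of member and class pairs past 1.5-fold higher was 14, and 11 to 18 under the alternatives. Ratios past 1.5-fold lower, such as that of Pink1 in cardiomyocyte-like cells, were not in these counts. All 124 Bnip3 values lay past 1.5-fold. In EC-like cells Bnip3 ranged from 3.85 (female-like cells) to 4.77 (male-like mutant cells) and Bnip3l from 0.50 (female-like cells) to 0.80 (TMM scaling). The mitochondrial share of EC-like cells, mutant minus control, ranged from -0.55 to -0.36 percentage points.

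Of 868 member values, 783 stayed within their counting interval, 81 left it in the same direction or from an interval that included 0, and 4 reversed, all in macrophage-like cells. These were Sqstm1 in female-like cells (0.11), in G1 cells (0.20) and at resolution 0.8 (0.024), and Map1lc3b in G1 cells (0.038). The cause was not tested. TMM scaling moved all EC-like ratios by 0.11, those of neuron-like cells by 0.11, cardiomyocyte-like cells by 0.15 and mesothelium-like cells by -0.12 (log2). With it, the higher share of all genes past 1.5-fold in either direction went from 38.8% to 53.7% in cardiomyocyte-like and from 61.4% to 48.9% in mesothelium-like cells. With 40 control UMIs, the EC-like Bnip3 ratio is limited by the depth of the control. Under female-like cells and under classes from marker levels, cluster 5 had under 10 cells in a library and gave no value.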
